A study of Mus musculus with 8 samples.

Results

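LSK cells were compared with HSCs after 1 day of culture without red blood cells (RBCs), using 4 of the 8 libraries of the series, 2 for each population. The members were taken by their labels, with earlier results of these data known. LSK cells are the Lin-, Sca-1+ and cKit+ cells of mouse bone marrow, a pool of multipotent progenitors that also holds the stem cells. HSCs are the fraction of that pool that lacks CD48 and carries CD150, so the sorted populations are nested. Both came from wild-type (WT) C57BL/6 mice, which the study's methods give as 8 to 20 weeks old, and both were kept for 1 day with no other cells added before CD45-positive cells were sorted again and full-length cDNA was sequenced. The methods give a serum-free medium with thrombopoietin and stem cell factor for HSCs and do not name the medium of the LSK cells. In the series, LSK cells and HSCs were also cultured with RBCs, again with 2 libraries each. Neither the labels nor the methods say whether 2 libraries of a group came from separate animals, so the p-values measure only the spread between these libraries.

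HSCs sit at the top of the blood hierarchy. They divide rarely, depend on thrombopoietin, and are kept by transcription factors such as Hlf, Mecom and Gata2. As cells leave this state they pass through multipotent progenitors that begin to express genes of more than one lineage at low levels, among them the granule proteases of neutrophils and the recombination enzymes of lymphocytes. The comparison addresses which of these programmes set the wider pool apart from its stem cells when both were cultured alone.

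Values are FPKM, which scale fragments to the length of the transcript and the depth of the library, so levels can be compared between genes. The summed FPKM ranged from 694737 to 752107 over the 4 libraries, and 14829 to 15346 gene symbols had a value above 0. Absolute depth is unknown. From the steps in which low values recur, relative depth lay between 0.922 and 1.125 of that of LSK replicate 1. Pearson's r over the tested genes, which are not independent replicates, was 0.9851 between the LSK libraries, 0.9866 between the HSC libraries and 0.9673 to 0.9711 between the populations. Differences are given on the log2(FPKM + 1) scale as LSK minus HSC, a scale that understates changes of low values. A gene was called when limma gave a Benjamini-Hochberg adjusted p under 0.05 and the difference was 2-fold or more. For a single gene, the smallest p that exact permutation of 4 libraries allows is 0.333 (two-sided), so every call rests on the spread that limma shares across genes. In bulk libraries, fewer cells of a type and less RNA per cell cannot be told apart.

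Of 11606 genes tested, 194 (1.67%) were higher and 127 (1.09%) were lower in LSK cells, which is 2.77% called in either direction. The differences were unequal in size: 52 genes were at least 4-fold higher in LSK cells on the log2(FPKM + 1) scale (a log2 difference of 2 or more). Among these 52 were 3 short RNA genes, Mir8113, Snora47 and Gm24148, with at most 3 reads in a library. Only 1 gene, the microRNA gene Mir1966 with 3 reads in all, was as far below. The median difference was 1.48 among the genes higher in LSK cells and -1.21 among those lower, against 0.007 over all genes tested. Genes higher in LSK cells had a median FPKM of 1.95 in HSCs and 10.4 in LSK cells, and genes lower in LSK cells one of 10.2 in HSCs and 3.39 in LSK cells. All 321 called genes had libraries that did not overlap between the populations, which was also so for 55.0% of all genes tested. With no fold threshold, 848 genes (7.31%) were higher and 904 (7.79%) lower, so small differences were about as frequent in each direction. An unadjusted limma p under 0.05 was found for 3410 of the 11606 genes. For the lists below, that share is the measure of unadjusted counts only. Called members are to be set against 1.67% higher and 1.09% lower, and counts with no fold threshold against 7.31% and 7.79%.

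The 4 surface antigens of the sort and the leukocyte antigen CD45 come first, since they check the labels. Cd48, on chromosome 1 of GRCm38 (171682009 to 171705258), stood at 147 and 184 FPKM in LSK cells and at 42.7 and 40.5 in HSCs, a log2 difference of 1.96 (standard error 0.149, adjusted p = 3.7e-05). Slamf1, which encodes CD150 and lies on the same chromosome (171767127 to 171801184), had 4.58 and 4.63 FPKM in LSK cells and 10.2 and 10.7 in HSCs, a log2 difference of -1.03 (adjusted p = 0.0026). It was -0.99, under the fold threshold, without HSC replicate 2. Both transcripts thus lay on the side that the gate gives the proteins, which checks the labels and is no finding. Kit, the receptor of stem cell factor, had 135 and 137 FPKM in LSK cells and 126 and 118 in HSCs, and was not called (log2 difference 0.16, adjusted p = 0.16). Ly6a, the gene of Sca-1, had 381 and 226 FPKM in LSK cells and 388 and 444 in HSCs, where the LSK libraries differed from each other and the gene was not called (adjusted p = 0.15). Ptprc, the gene of CD45, had 49.2 and 46.0 FPKM in LSK cells against 42.5 and 44.8 in HSCs and was not called either.

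Among the 15 genes that stood furthest above HSCs, short RNA genes, unnamed gene models and genes under 5 FPKM left out, were several of neutrophil granules. Mpo encodes myeloperoxidase, the peroxidase of primary granules, and lies on chromosome 11 (87793581 to 87804413). It had 466 and 585 FPKM in LSK cells and 17.8 and 11.1 in HSCs, a log2 difference of 5.12 (standard error 0.267, adjusted p = 4.5e-06); 15% of its exon bases overlap the gene model Gm11505 on the other strand. Ctsg, the granule protease cathepsin G, had 39.8 and 48.8 FPKM in LSK cells and 1.37 and 1.15 in HSCs, a log2 difference of 4.32 (standard error 0.249, adjusted p = 6.1e-06). Elane, neutrophil elastase, was at 33.6 and 33.1 FPKM against 3.45 and 1.75, a difference of 3.30 (standard error 0.433, adjusted p = 9.4e-04). In each of these genes the lower LSK library was several times the higher HSC library. Prtn3, a protease of the same granules encoded beside Elane, was an exception with 223 and 204 FPKM in LSK cells and 223 and 231 in HSCs (log2 difference -0.09, adjusted p = 0.45).

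**Figure D1:**
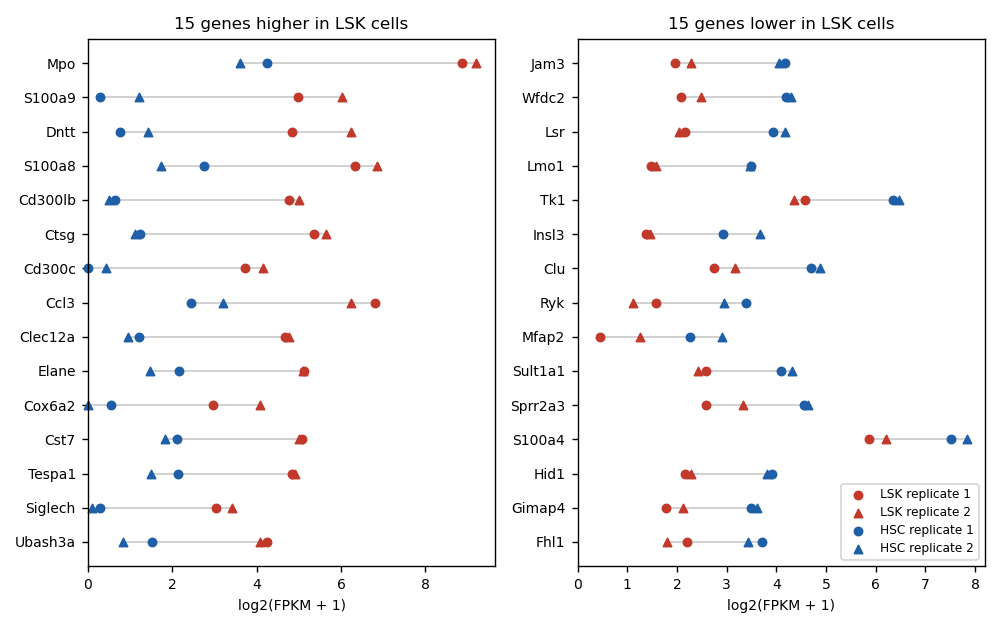
Expression of the 15 genes with the largest difference in each direction in the 4 libraries without RBCs. They were taken among called, non-overlapping genes, with short RNA genes, unnamed gene models and genes under 5 FPKM left out. The x axis gives log2(FPKM + 1), each row is a gene, red marks are LSK libraries, blue marks HSC libraries, circles replicate 1 and triangles replicate 2. In every row the red and blue marks are separate, as the choice of genes required. The gaps in the left panel (log2 differences of 2.99 to 5.12) are wider than those in the right panel (-1.57 to -1.99).

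The list of primary granule and myeloid progenitor genes had 13 of 22 tested members higher in LSK cells and 0 lower, with a median log2 difference of 1.26. Beside the proteases, these included Tyrobp, an adaptor of activating receptors, with 241 and 206 FPKM in LSK cells against 26.5 and 30.9 in HSCs (2.92, adjusted p = 2.8e-06). Clec12a, an inhibitory lectin receptor of myeloid cells, had 24.4 and 26.0 FPKM against 1.31 and 0.943 (3.63, adjusted p = 6.1e-06). Plac8, a gene of myeloid and lymphoid progenitors, was among the most abundant with 628 and 618 FPKM against 161 and 179 (1.87, adjusted p = 6.8e-07). The other members called were Fcgr3, Cebpa, Ms4a3, Nkg7, Fcer1g, Hp and Csf3r, with differences from 1.20 to 2.39. Hp, the plasma protein haptoglobin, was near the threshold with 1.88 and 1.45 FPKM against 0.299 and 0, and its adjusted p of 0.019 went to 0.098 without LSK replicate 1, 0.059 without LSK replicate 2 and 0.11 without HSC replicate 2. Proteins that are packed into granules or made in the endoplasmic reticulum of many cell types, such as Srgn with 869.7 and 863 FPKM against 785 and 990.0, and Calr with 464 and 458 against 370.3 and 373, were not called.

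S100a8 and S100a9, the paired calcium-binding proteins of neutrophils and monocytes, were among the largest differences and among the most variable. S100a9 had 30.5 and 63.5 FPKM in LSK cells and 0.220 and 1.33 in HSCs (4.74, standard error 0.732, adjusted p = 0.0024). S100a8 had 79.1 and 114 FPKM against 5.70 and 2.32 (4.35, standard error 0.671, adjusted p = 0.0024). Their standard errors were over 2 times that of Mpo. In the list of late neutrophil genes, 4 of 8 tested members were higher and 0 were lower in LSK cells (median 2.02). Retnlg, a secreted protein of neutrophils, had 7.14 and 3.64 FPKM against 0 and 0.209, and Il1b, the cytokine interleukin-1 beta, 4.30 and 4.54 against 0.789 and 0.888. Ngp, a secondary granule protein, was at 1.85 and 20.4 FPKM in LSK cells and at 0.0713 and 0 in HSCs, and with this spread it was not called (adjusted p = 0.055). Over the 15 listed late neutrophil genes found in the files, the summed FPKM was 208 and 315 in LSK cells and 78.3 and 61.8 in HSCs, and Olfm4 was at 0 in all 4 libraries. Whether mature neutrophils contributed to these values was not tested.

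The sequences before 4 of these genes are shown because they hold the letters of C/EBP or PU.1, factors of myeloid genes whose own transcripts are given further on. They are RefSeq promoters of GRCm38.p6, restricted to bases outside any GENCODE exon, and run 5′ to 3′ on the strand of the gene. Capitals mark the letters GAGGAAGT (PU.1) or TTGCNNAA (C/EBP, where N is any base) on either strand. They start 172 bases before the RefSeq start for S100a8, 236 for S100a9, 85 for Elane and 169 for Siglech. S100a8 is from chr3:90668821-90668977 on the plus strand, S100a9 from chr3:90695722-90695971 on the minus strand, Elane from chr10:79886062-79886246 on the plus strand and Siglech from chr7:55767934-55768177 on the plus strand.
S100a8: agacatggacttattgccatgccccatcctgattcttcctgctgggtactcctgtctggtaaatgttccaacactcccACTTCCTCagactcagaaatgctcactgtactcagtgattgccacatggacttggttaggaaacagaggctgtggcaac
S100a9: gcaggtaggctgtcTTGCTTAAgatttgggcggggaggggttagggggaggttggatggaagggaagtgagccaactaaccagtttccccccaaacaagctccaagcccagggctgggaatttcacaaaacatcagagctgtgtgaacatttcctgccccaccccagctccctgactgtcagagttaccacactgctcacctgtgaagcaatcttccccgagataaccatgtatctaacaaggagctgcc
Elane: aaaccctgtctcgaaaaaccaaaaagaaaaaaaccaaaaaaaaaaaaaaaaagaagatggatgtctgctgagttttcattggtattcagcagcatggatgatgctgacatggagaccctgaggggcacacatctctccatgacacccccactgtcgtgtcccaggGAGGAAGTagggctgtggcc
Siglech: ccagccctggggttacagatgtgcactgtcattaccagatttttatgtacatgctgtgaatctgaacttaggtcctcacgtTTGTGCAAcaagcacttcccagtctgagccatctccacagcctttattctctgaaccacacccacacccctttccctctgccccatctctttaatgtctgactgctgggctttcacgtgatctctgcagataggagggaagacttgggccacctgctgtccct

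A RefSeq promoter was found for 145 of the 194 genes higher in LSK cells, for 88 of the 127 lower and for 8907 of the 11606 tested. In the full windows, from 250 bases before to 50 after the start, GAGGAAGT was present on either strand in 13 promoters (8.97%) of genes higher in LSK cells and in 6 (6.82%) of genes lower, against 3.32% of genes tested and 3.28% of all 27025 promoters. TTGCNNAA was in 23 (15.9%) and 8 (9.09%), against 8.16% of genes tested and 10.8% of all promoters. The E2F letters TTTGGCGC were in 0 and 1 of the promoters, against 1.12% of genes tested. The GATA letters AGATAAG were in 2 and 1, against 1.57%. No test was made of these shares, and a match describes the letters alone.

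Genes of monocytes and dendritic cells were also higher in LSK cells, though the list was mixed. Of its 10 tested members, 5 were higher and 1 was lower, with a median of 0.85. Irf8, a transcription factor that monocytes and dendritic cells need, had 38.5 and 46.7 FPKM in LSK cells against 6.19 and 5.48 in HSCs (2.67, standard error 0.146, adjusted p = 5.3e-06). Csf1r, the receptor of macrophage colony-stimulating factor, had 14.1 and 22.8 against 2.53 and 2.81 (2.37, adjusted p = 6.6e-05). Siglech, a lectin of plasmacytoid dendritic cells, stood at 7.24 and 9.72 FPKM against 0.217 and 0.0755 (3.04, adjusted p = 4.6e-05). These 3 genes were low in both HSC libraries. Macrophage genes were mixed. Lyz2, lysozyme, had 296 and 196 FPKM in LSK cells and 312 and 321 in HSCs and was not called. Cd68, a lysosomal membrane protein of macrophages, was lower in LSK cells with 43.8 and 48.6 FPKM against 85.9 and 107 (-1.04, adjusted p = 3.0e-04), and it fell short of 2-fold without LSK replicate 1 (-0.96) or HSC replicate 2 (-0.88). C1qa was at 0 in all 4 libraries. F13a1, a coagulation factor of monocytes, was called at an adjusted p of 0.049, which rose to between 0.064 and 0.23 when either LSK library or either HSC library was left out.

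Among mast cell and basophil genes, 2 proteases were higher in LSK cells. Cpa3, mast cell carboxypeptidase, had 17.8 and 26.0 FPKM in LSK cells against 2.83 and 1.40 in HSCs (2.90, adjusted p = 4.5e-05). Mcpt8, a basophil protease, had 3.65 and 11.8 FPKM and was listed at 0 in both HSC libraries (adjusted p = 0.0043). These were 2 of the 10 tested members of the list. Il4, a cytokine of basophils and T cells, went the other way with 6.46 and 7.36 FPKM in LSK cells against 18.2 and 24.9 in HSCs (-1.5, adjusted p = 0.0012). Cma1, Tpsab1, Mcpt4 and Il13 were at 0 in all 4 libraries.

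Lymphoid genes were the other large group on the LSK side. Of 20 tested genes of lymphoid priming, 10 were higher in LSK cells and 0 were lower (median 1.14). Dntt, the terminal transferase that adds bases to rearranging receptor genes, had 27.7 and 74.2 FPKM in LSK cells and 0.691 and 1.67 in HSCs (4.45, standard error 0.367, adjusted p = 5.2e-05). Flt3, the cytokine receptor that marks lymphoid-primed progenitors, had 97.3 and 89.1 against 18.7 and 22.5 (2.13, adjusted p = 1.1e-05). The libraries of Dntt differed more within LSK cells than those of Flt3. For both, the LSK and HSC values did not overlap, as in every called gene. At lower levels, Il7r, the interleukin-7 receptor, had 2.59 and 3.80 FPKM in LSK cells and 0.0902 and 0.0275 in HSCs (1.97, adjusted p = 2.3e-04). Satb1, a chromatin organiser of lymphoid cells, had 6.77 and 6.59 against 0.919 and 0.954 (1.99, adjusted p = 5.2e-05). Rag2, a subunit of the V(D)J recombinase, had 1.36 and 2.06 against 0.0637 and 0.0259 (1.36, adjusted p = 0.0012). Cd52, Ccr9, Blnk and Ly6d were also called, with differences from 1.87 to 2.15. Ly6d had 8.13 and 6.44 FPKM against 1.56 and 0.346, and its adjusted p of 0.019 went to 0.091 without LSK replicate 1, 0.065 without LSK replicate 2 and 0.12 without HSC replicate 2. Ikzf1, Mef2c, Tcf3 and Bcl11a, transcription factors of early lymphoid cells, were not called, with differences between -0.36 and 0.31.

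Markers of mature lymphocytes were largely below the expression filter. Of 10 listed B cell genes, 2 passed it. Vpreb1, a chain of the surrogate light chain of B cell precursors, had 8.23 and 9.86 FPKM in LSK cells against 2.68 and 4.31 in HSCs (1.18, adjusted p = 0.0027), and 0.91 without HSC replicate 1, under the fold threshold. Cd79b had 36.6 and 40.6 against 34.9 and 39.9 and was not called, and Pax5 was at 0 in all 4 libraries. Of 10 listed T cell genes, 2 passed the filter and limma called 0, with 2 at an unadjusted p under 0.05 (Lat, 0.41, and Cd28, 0.69). Among NK cell genes, Klrd1, a lectin receptor of NK cells, had 5.95 and 5.97 FPKM in LSK cells against 0 and 0.253 in HSCs (2.64, adjusted p = 2.9e-05), while Prf1 and Klrg1 were at 0 in all 4 libraries.

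The remaining genes of the 15 furthest above HSCs have several known roles. Cd300lb and Cd300c, members of a family of myeloid receptors, had 26.4 and 31.1 FPKM against 0.557 and 0.402 (4.33, adjusted p = 6.8e-07) and 12.1 and 16.6 against 0 and 0.346 (3.71, adjusted p = 4.5e-06). Ccl3, an inflammatory chemokine, had 109.9 and 74.5 FPKM in LSK cells against 4.46 and 8.16 in HSCs (3.69, adjusted p = 9.4e-06). Cst7, an inhibitor of lysosomal cathepsins, had 32.4 and 31.3 against 3.33 and 2.56 (3.06, adjusted p = 2.1e-06). Tespa1, which takes part in T cell receptor signalling, had 27.6 and 29.0 against 3.42 and 1.84 (3.05, adjusted p = 7.3e-06). Ubash3a, a phosphatase that dampens receptor signalling in T cells, had 18 and 15.9 against 1.87 and 0.782 (2.99, adjusted p = 1.9e-05). Cox6a2, a subunit of cytochrome c oxidase known from muscle, had 6.84 and 16 FPKM against 0.456 and 0 (3.26, adjusted p = 1.7e-04); 10.3% of its exon bases overlap Itgad on the other strand. All of these had non-overlapping libraries, since the choice of the 15 required it.

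The list of chemokines and cytokines had 5 of 14 tested members higher and 1 lower, with a median of 0.38. Ccl9 had 72.4 and 78.5 FPKM in LSK cells against 14.8 and 16 in HSCs (2.22, adjusted p = 4.2e-05). Ccl4 had 69.2 and 48.4 against 24.2 and 29.8 (1.08, adjusted p = 0.0051), and was under the fold threshold without LSK replicate 1 (0.83) or HSC replicate 1 (0.94). Ccl6, at 4.91 and 2.96 against 1.22 and 0.809, was called at an adjusted p of 0.032, which was lost when either HSC library (0.066 and 0.15), LSK replicate 1 (0.17) or either LSK library with RBCs (0.051 each) was left out. Il1b was the fifth and Il4 the member that was lower.

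Among 26 tested receptors of haematopoietic cytokines, the 4 called higher in LSK cells were Flt3, Csf1r, Il7r and Csf3r, and 0 were called lower. With no fold threshold 10 of the 26 passed as higher and 5 as lower. Csf3r, the receptor of granulocyte colony-stimulating factor, had 59.2 and 63.7 FPKM against 28.8 and 23.9 (1.20, adjusted p = 4.7e-05). Among 33 transcription factors of blood lineages, Irf8, Cebpa and Tcf7 were higher and Egr1 was lower, and with no fold threshold 9 passed as higher and 5 as lower. Cebpa, the C/EBP factor that granulocyte progenitors need (chromosome 7, 35119293 to 35121928), had 8.78 and 8.65 FPKM in LSK cells against 1.64 and 0.679 in HSCs (2.2, adjusted p = 1.3e-04). Tcf7, a factor of early T lineage cells, had 4.88 and 5.16 against 0.467 and 0.244 (2.16, adjusted p = 1.2e-04). Spi1, which encodes PU.1, had 98.9 and 97.3 against 70.3 and 63.2, a difference of 0.55 (adjusted p = 9.9e-04) that did not reach 2-fold.

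On the HSC side, the list of HSC identity genes had 6 of 33 tested members lower in LSK cells and 0 higher, with a median of -0.60. The shift was broad and small: 31 of 33 members had a negative difference, and with no fold threshold 25 passed the adjusted p as lower and 1, Adgrg1, as higher. Sult1a1, a sulfotransferase, had 5.0 and 4.37 FPKM in LSK cells against 16 and 19 in HSCs (-1.70, standard error 0.181, adjusted p = 2.7e-04). Mllt3, a regulator of HSC maintenance, had 5.83 and 5.88 against 14.7 and 13.5 (-1.14, adjusted p = 2.3e-04). Cdkn1c, the CDK inhibitor p57 and an imprinted gene, had 3.69 and 3.67 against 9.99 and 9.39 (-1.19, adjusted p = 4.1e-04); 30.7% of its exon bases overlap Gm44732. The 2 libraries of each population were close for these 3 genes. Socs2, which is induced by STAT5 and feeds back on cytokine signalling, had 32.6 and 35.9 FPKM against 78.8 and 85.6 (-1.24, adjusted p = 4.6e-05). Egr1, a transcription factor of quiescent HSCs and an immediate early gene, had 77.9 and 35.8 against 147 and 139 (-1.42, adjusted p = 0.0057), and without LSK replicate 2 its difference was -0.87, under the fold threshold. Slamf1, a sort antigen, was the sixth.

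**Figure D2:**
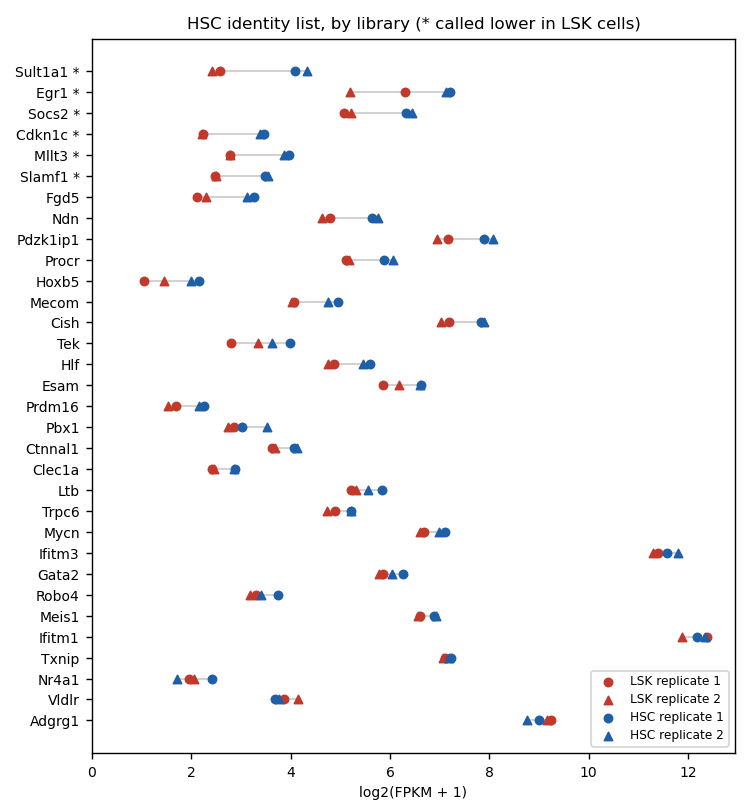
HSC identity genes, 32 of those tested, in the 4 libraries without RBCs, ordered by the difference, with log2(FPKM + 1) on the x axis, red for LSK libraries, blue for HSC libraries, circles for replicate 1 and triangles for replicate 2. The 6 genes marked with a star were called lower in LSK cells, and 30 of the 32 have a lower mean in LSK cells, most by less than 1 on this scale.

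Other genes used to recognise HSCs stayed under 2-fold. Procr, the endothelial protein C receptor, had 33.4 and 35.3 FPKM in LSK cells against 58.2 and 65.3 in HSCs (-0.83, adjusted p = 2.6e-04). Hlf, a transcription factor of HSCs, had 28.1 and 26.1 against 47.4 and 42.6 (-0.71, adjusted p = 8.0e-04). Mecom had 15.8 and 15.3 against 30.1 and 26.0 (-0.81, adjusted p = 9.6e-04). All HSC values of these 3 genes exceeded all LSK values, and 55.0% of all genes tested were separated in 1 direction or the other. Fgd5 had 3.31 and 3.90 against 8.62 and 7.74, just under the fold threshold. The 7 heptad transcription factors of stem and progenitor cells (Erg, Fli1, Tal1, Lyl1, Lmo2, Runx1 and Gata2) were expressed in all 4 libraries and limma called 0 of them (2 had an unadjusted p under 0.05, and Gata2 an adjusted p of 0.036 under the fold threshold), with a median of -0.23. Of 12 tested Hox genes and their cofactors, Hoxb2 was lower with 2.26 and 2.41 FPKM against 5.97 and 6.11 (-1.08, adjusted p = 0.0036), and 27.3% of its exon bases overlap Hoxb3os.

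The 15 genes with the largest difference below HSCs, among called genes with a mean of at least 5 FPKM in HSCs and without short RNA genes, included an adhesion molecule, a transcription cofactor, a nucleotide kinase and secreted proteins. Jam3, a junctional adhesion molecule that HSCs carry, had 2.90 and 3.89 FPKM in LSK cells against 17.1 and 15.7 in HSCs (-1.99, standard error 0.155, adjusted p = 4.2e-05); 36.2% of its exon bases overlap Gm48796 on the other strand. Its relative Jam2 had 1.39 and 1.23 against 4.15 and 4.58 (-1.22, adjusted p = 7.7e-04). Lmo1, a LIM domain transcription cofactor, had 1.78 and 1.97 against 10.2 and 10.1 (-1.96, adjusted p = 0.0015). Among integrins and adhesion molecules as a list, 2 of 32 tested members, Jam3 and Jam2, were lower and 4 were higher, among them Itgb5, Itgal and Itgb7. Itgb5 had the widest gap of the integrins with 15.3 and 16.8 FPKM in LSK cells against 2.09 and 0.886 in HSCs (2.82, adjusted p = 2.7e-05).

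Several of the other genes below HSCs encode secreted proteins. Wfdc2, a protease inhibitor, had 3.23 and 4.56 FPKM in LSK cells against 17.2 and 18.7 in HSCs (-1.97, adjusted p = 4.9e-04). Clu, the extracellular chaperone clusterin, had 5.72 and 8.01 against 25 and 28.3 (-1.82, adjusted p = 5.2e-05). Mfap2, a microfibril protein, had 0.362 and 1.38 against 3.78 and 6.47 (-1.73, adjusted p = 0.0052). All 3 were lower in both LSK libraries than in either HSC library, which the choice of the 15 required. Insl3, a peptide hormone, had 1.60 and 1.76 against 6.58 and 11.8 (-1.88), but 64.8% of its exon bases overlap Jak3 on the same strand, so the reads of these genes cannot be assigned with certainty. Ryk, a receptor of Wnt proteins, had 1.99 and 1.16 against 9.43 and 6.72 (-1.82, adjusted p = 9.5e-04). S100a4, a calcium-binding protein, was the most abundant of the 15 with 57.4 and 72.9 FPKM against 181 and 227 (-1.63, adjusted p = 6.3e-05), and 51.7% of its exon bases overlap Gm42674. Lsr, Sprr2a3, Hid1, Gimap4 and Fhl1 completed the 15 with Tk1 and Sult1a1, with differences from -1.57 to -1.96. Sprr2a3 belongs to a family of near-identical genes that can share reads, and 43.6% of the exon bases of Lsr overlap Gm4673.

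Megakaryocyte genes, some of which HSCs express, had calls in both directions. Of 19 tested members, Thbs1 was higher and Mmrn1 and Vwf were lower in LSK cells, with a median of -0.21. By sign, 9 were positive and 10 negative. With no fold threshold 7 of the 19 passed as lower and 1 as higher, against 7.79% and 7.31% of all genes tested. Vwf, the von Willebrand factor, had 5.82 and 5.91 FPKM in LSK cells against 13.4 and 13.7 in HSCs (-1.08, adjusted p = 3.7e-04). Mmrn1, multimerin of platelet granules, had 22.9 and 21.3 against 55.6 and 50.8 (-1.23, adjusted p = 2.3e-05). Thbs1, thrombospondin, had 22.9 and 38.0 against 8.68 and 7.93 (1.72, adjusted p = 2.8e-04). Pf4, platelet factor 4, varied between the LSK libraries (129.6 and 37.8 FPKM) and was not called, and Itga2b, CD41, had 48.3 and 45.9 against 48.2 and 44.4. Of 13 tested erythroid genes, Hbb-b2 alone was called, at 109 and 173 FPKM against 279 and 335 (-1.15). Its adjusted p of 0.046 was lost when either LSK library, either HSC library or either HSC library with RBCs was left out (0.052 to 0.23), and the beta globin copies are alike enough to share reads.

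Genes of DNA replication all had a negative difference. This held for 36 of 36 tested members, with a median of -0.27, which ranged from -0.32 to -0.24 when 1 library was left out and from -0.30 to -0.26 under other scalings. Only Tk1 was called, and with no fold threshold 14 of the 36 passed the adjusted p as lower and 0 as higher. Tk1, thymidine kinase, on chromosome 11 (117815526 to 117826092), had 23 and 19.6 FPKM in LSK cells against 80.2 and 87.4 in HSCs (-1.93, standard error 0.116, adjusted p = 7.8e-06). Lig1, the replicative DNA ligase, had 45.2 and 48.2 against 71.0 and 67.7 (-0.56, adjusted p = 0.0014), and Pcna, the sliding clamp, 319 and 312 against 382 and 421 (-0.35, adjusted p = 0.0078). The difference of Tk1 was several times that of any other member. E2F letters were found in 5 of 29 promoters of this list (TTTGGCGC, 17.2%) and in 4 (TTTCCCGC, 13.8%), against 1.12% and 2.17% of genes tested.

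Mitotic genes were not called. Of 30 tested members limma called 0, and the median was 0.04. An unadjusted p under 0.05 was found for 9, 7 of them higher. Over all 11606 genes tested, 2.77% were called and 3410 had an unadjusted p under 0.05, so these counts do not set the list apart. With no fold threshold Ube2c, Ccnb1, Cdc20 and Aurka passed as higher in LSK cells and 0 as lower. Ube2c, which ubiquitinates mitotic cyclins, had 86.0 and 86.4 FPKM in LSK cells against 48.9 and 54.0 in HSCs (0.73, adjusted p = 1.6e-04). Ccnb1, cyclin B1, had 66.7 and 63.5 against 43.7 and 44.8 (0.55, adjusted p = 8.3e-04). A separate list of D cyclins, CDK4/6 and CDK inhibitors had 13 tested members and a median of -0.02. In it 0 were called higher and 1, Cdkn1c, lower, and with no fold threshold 2 passed as higher and 3 as lower. Cdk6, the kinase of G1 entry, had 92.5 and 99.6 against 54.0 and 59.3 (0.75, adjusted p = 2.7e-04). Cdkn1a, the CDK inhibitor p21, had 169 and 172 against 88.4 and 96.6 (0.88, adjusted p = 8.7e-05). None of these 4 genes reached 2-fold.

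**Figure D3:**
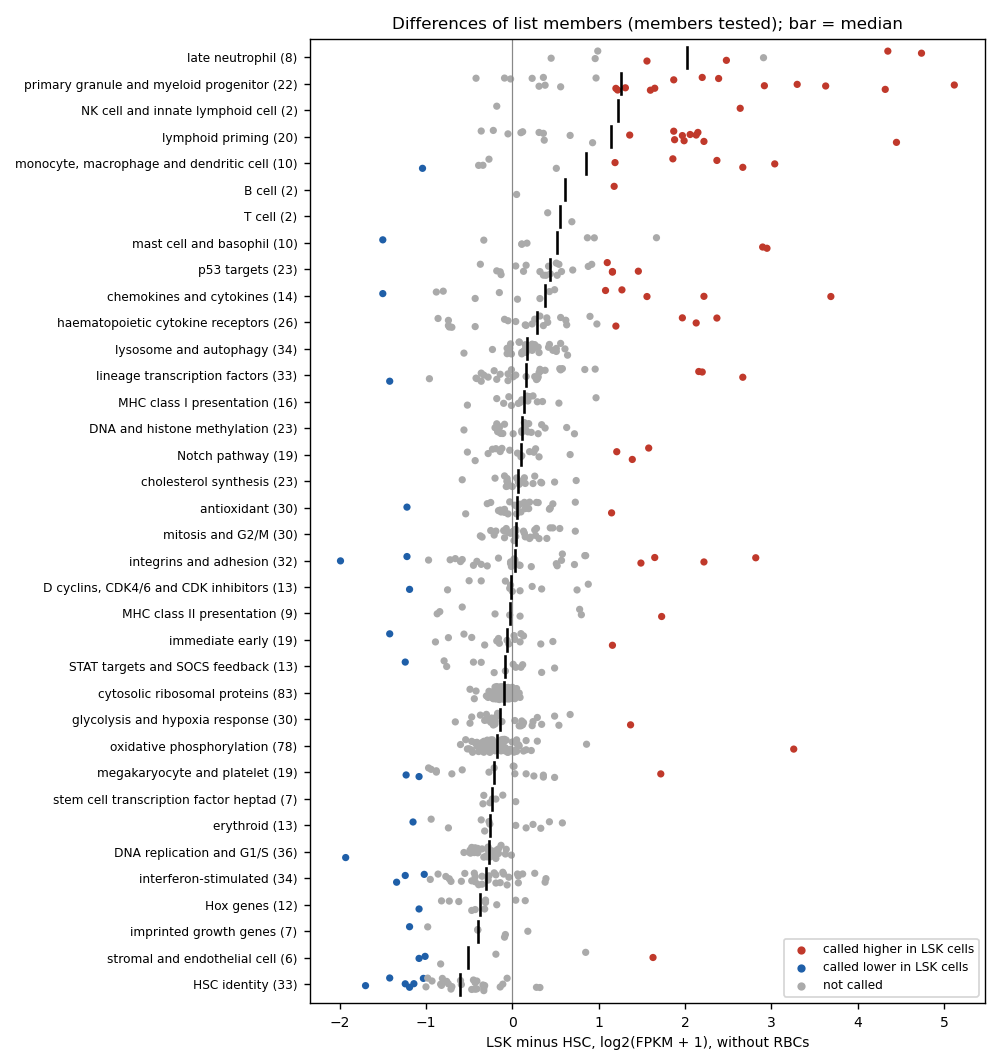
Difference between LSK cells and HSCs without RBCs for the tested members of 36 gene lists, with the number tested in brackets. The x axis gives LSK minus HSC on the log2(FPKM + 1) scale, each point is a gene, red points were called higher and blue points lower in LSK cells, grey points were not called, and the black bar is the list median. The late neutrophil (median 2.02), primary granule (1.26) and lymphoid priming (1.14) lists lie to the right, as does the NK cell and innate lymphoid cell list (1.23) with only 2 tested members, and the HSC identity list (-0.60) furthest to the left.

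Targets of p53 leaned toward LSK cells, with 4 of 23 tested members higher, 0 lower and a median of 0.44. Pmaip1, which encodes the BH3 protein NOXA, had 7.88 and 9.51 FPKM in LSK cells against 2.21 and 2.84 in HSCs (1.46, adjusted p = 0.0025). Bbc3, which encodes PUMA, had 13 and 14.3 against 5.98 and 5.19 (1.16, adjusted p = 4.3e-04). Btg2, an antiproliferative gene, had 20.2 in each LSK library against 8.21 and 8.73 (1.16, adjusted p = 5.4e-04), and Gadd45a, a stress response gene, had 23.2 and 22.4 against 10.1 and 10.2 (1.10, adjusted p = 3.6e-04). With no fold threshold, 10 of the 23 passed as higher and 0 as lower, Mdm2 and Bax among them.

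Interferon-stimulated genes leaned toward HSCs. Of 34 tested members, 3 were lower in LSK cells and 0 higher, the median was -0.31, and with no fold threshold 12 passed as lower and 0 as higher. Iigp1, an immunity-related GTPase, had 5.42 and 3.74 FPKM in LSK cells against 11.5 and 14.5 in HSCs (-1.34, adjusted p = 9.7e-04). Oas3, an oligoadenylate synthetase, had 1.70 and 1.61 against 5.50 and 5.05 (-1.24, adjusted p = 0.0069). Irf7, the interferon regulatory factor of the interferon response, had 3.18 and 3.74 against 8.28 and 7.81 (-1.02, adjusted p = 0.0017), and was -0.93 without LSK replicate 1 and -0.98 without HSC replicate 1. In each of the 3 genes both LSK libraries lay below both HSC libraries, and no called gene had overlapping libraries.

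Targets of thrombopoietin signalling through STAT5 were examined because the medium given for HSCs held thrombopoietin. Socs2 was the only 1 of 13 tested STAT targets and SOCS genes that was called, and with no fold threshold 5 passed as lower in LSK cells and 0 as higher. Pim2, a kinase induced by STAT5, had 144 and 137 FPKM against 253 and 236 (-0.79, adjusted p = 8.6e-05), and Cish, a feedback inhibitor, 144 and 129 against 227 and 237 (-0.76, adjusted p = 1.5e-04). The list median was -0.08, near that of all genes.

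Of 19 tested Notch pathway genes, 3 were higher in LSK cells and 0 were lower (median 0.10). Dtx4, a Notch-binding ubiquitin ligase, had 3.55 and 4.59 FPKM against 0.632 and 0.741 (1.58, adjusted p = 2.7e-04). Maml3, a coactivator of the Notch complex, had 6.72 and 7.10 against 2.29 and 1.78 (1.39, adjusted p = 2.9e-04). Adam17, a protease that sheds surface proteins, had 37.1 and 43.2 against 18.8 and 15 (1.21, adjusted p = 2.7e-04). Notch1 itself had 3.70 and 3.79 FPKM against 1.99 and 1.98, a difference of 0.67 that was past the adjusted p (0.013) but not 2-fold.

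Few genes of housekeeping programmes were called. In the lists of cholesterol synthesis (23 tested), lysosome and autophagy (34), MHC class I presentation (16), DNA and histone methylation (23) and cytosolic ribosomal proteins (83), 0 genes were called by limma with the fold threshold. With no fold threshold 2, 8, 3, 3 and 2 of them passed the adjusted p, and 5, 16, 9, 5 and 11 had an unadjusted p under 0.05. Of the 8 in the lysosome and autophagy list, 7 were higher and 1 lower in LSK cells, and 27 of its 34 members had a positive difference. The 3 of MHC class I were higher. Among ribosomal proteins, 69 of 83 had a negative difference (median -0.10). Over all 11606 genes tested, 15.1% passed the adjusted p in either direction and 3410 had an unadjusted p under 0.05. Oxidative phosphorylation had 78 tested members, of which Cox6a2 alone was called, and with no fold threshold 24 were lower and 2 were higher in LSK cells (median -0.18). Ndufa3, a subunit of complex I, had 510.1 and 519 FPKM in LSK cells against 692 and 873 in HSCs (-0.60, adjusted p = 0.0031). Glycolysis and hypoxia genes had 1 of 30 called, Egln3, an oxygen-sensing prolyl hydroxylase, with 24.1 and 22.9 FPKM against 9.63 and 7.39 (1.37, adjusted p = 1.9e-04). Of 30 tested antioxidant genes, Hmox1, heme oxygenase, was higher with 28.6 and 30.3 FPKM against 15.5 and 10.5 (1.15, or 0.89 and under the fold threshold without HSC replicate 2), and Prdx4, a peroxiredoxin, was lower with 48.2 and 52.8 against 116 and 121 (-1.22, adjusted p = 3.5e-05). In the MHC class II list, H2-Ob, a regulator of peptide loading, was higher with 25.6 and 31.2 against 7.75 and 7.88 (1.73, adjusted p = 1.5e-05), while Cd74, the invariant chain, had 32.6 and 29.9 against 63.8 and 52.6 (-0.87, adjusted p = 0.0019) without reaching 2-fold.

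Stromal and endothelial genes were examined as markers of other cells. Of 12 listed, 6 passed the filter, and the summed FPKM of the list was 78.0 and 84.1 in LSK cells and 69.0 and 69.3 in HSCs. Pecam1, which haematopoietic cells also express, had 52.4 and 58.3 FPKM against 30.6 and 29.8 and was not called (0.85). Pdgfrb, a growth factor receptor, was higher in LSK cells with 7.44 and 7.26 FPKM against 1.83 and 1.57 (1.63, adjusted p = 1.0e-04). Lepr, the leptin receptor, was lower with 0.380 and 0.299 against 1.58 and 1.82 (-1.01), and fell short of 2-fold without LSK replicate 2 (-0.97) or HSC replicate 2 (-0.95). Vwf, already named, was the third. A part of non-haematopoietic cells in these differences was not tested.

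The LSK and HSC libraries cultured with RBCs share no sample with those above and give the same contrast again. Both contrasts came from the same fit and have the same standard error for each gene (0.267 for Mpo in both). Calls in both conditions are therefore not independent of each other. There, 276 genes (2.38%) were higher and 115 (0.991%) lower in LSK cells. Of the 194 genes higher without RBCs, 148 were also called with RBCs and 192 had the same sign. Of the 127 lower without RBCs, 43 were also called and 124 had the same sign. Because the genes were chosen by their call without RBCs, smaller differences with RBCs are favoured by the choice alone. Mpo was at 579 and 581 FPKM in LSK cells with RBCs against 6.16 and 2.82 in HSCs with RBCs (6.80, adjusted p = 6.0e-07), and Tk1 differed by -2.30. Of the 15 largest differences above HSCs, 14 were called again, and of the 15 largest below HSCs 7 were. The exception above HSCs was S100a9, with 156 and 89.6 FPKM in LSK cells with RBCs against 87.9 and 11.8 in HSCs with RBCs (1.82, adjusted p = 0.096), where the HSC libraries lay far apart. Of the 6 called HSC identity genes, Socs2 was called again, and the list median was -0.46.

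**Figure D4:**
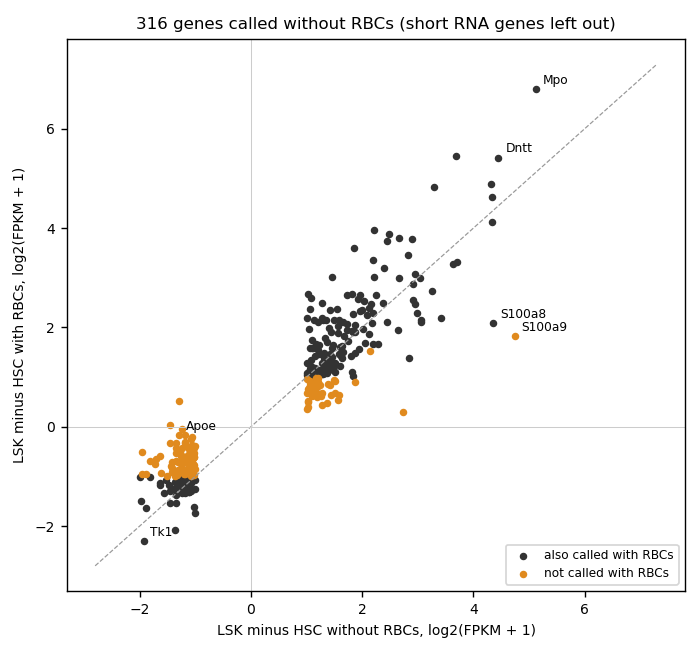
Difference between LSK cells and HSCs without RBCs (x axis) and with RBCs (y axis), both on the log2(FPKM + 1) scale, for 316 genes called without RBCs, with 5 short RNA genes left out. Each point is a gene, dark points were also called with RBCs (190 genes), orange points were not, and the dashed line marks equal differences. Genes on the LSK side spread along the line up to Mpo, and many genes on the HSC side lie nearer to 0 with RBCs. The genes were chosen by their call on the x axis, which by itself favours smaller differences on the y axis.

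A call in one condition and not in the other does not show that the contrast differed, so the difference itself was tested as an interaction. It passed the threshold for 18 genes (0.155%), of which 6 were among the 321. That count was 8 without LSK replicate 1 with RBCs, 7 without LSK replicate 2 with RBCs and 9 without HSC replicate 2 without RBCs. Apoe, the lipid carrier apolipoprotein E, had 88.9 and 87.0 FPKM in LSK cells against 217 in each HSC library without RBCs (-1.29, adjusted p = 2.6e-05), and 102 and 119.5 against 135 and 115 with RBCs (-0.17), an interaction of 1.12 (adjusted p = 0.011). It was chosen after its values were seen. For S100a9 the interaction was -2.92 and was not past the threshold (adjusted p = 0.29).

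Short RNA genes gave 5 of the 321 calls, and 4 of these rest on few reads. From the steps of their values, Mir1966 had 0 reads in each LSK library and 2 and 1 in the HSC libraries, Mir8113 and Gm24148 had 3 and 1 reads in LSK cells and 0 in HSCs, and Snora47 had 1 read in each LSK library and 0 in HSCs. With at most 3 reads in a library, differences of these 4 genes are not detectable at this depth. Snord22 had values that were not whole multiples of a step, so its reads could not be counted. Mir1966 was again at 0 FPKM in both LSK libraries with RBCs. In the HSC libraries with RBCs it was at 526 and 1393 FPKM, which also stand for at most 3 reads in a library.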

How the data were processed

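Total RNA was made into full-length cDNA (SMART-Seq HT), tagged with Nextera XT and sequenced. The files deposited by the authors hold 1 FPKM value for each gene symbol, in a table for each of the 8 libraries. The submitters' processing notes name mm10 and the tools TopHat2 2.1.1, Bowtie2 2.2.8, SAMtools 0.1.18 and Cuffdiff 2.2.1; strand and annotation are not given in the sources used here. Groups and replicate numbers came from the sample titles.

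From the FPKM values, log2(FPKM + 1) was computed for the 11606 of 24346 symbols whose FPKM reached 1 in 2 or more of the 4 libraries without RBCs. limma 3.58.1 in R 4.3.3 fitted 4 group means over all 8 libraries with a mean-variance trend and no replicate block (4 residual degrees of freedom, prior 5.84); LSK minus HSC was tested without RBCs, with RBCs and as their interaction. A call took a 2-fold difference and, over all genes tested, a Benjamini-Hochberg adjusted p under 0.05. The members and the 37 gene lists were chosen with earlier results of these data known, so lists are described by counts and medians. Named were, in each direction, the 15 largest differences among called, non-overlapping genes with a mean FPKM of at least 5 in the higher group, short RNA genes and unnamed gene models left out; the sort antigens; and called members of lists, with further members where a list is described.

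Depth is known only as relative values: 2461 of 3659 low genes (67.3%) were whole multiples of a step within 1%. Values per read of the shortest genes are large, so their counts are given instead. Positions and exon overlaps came from GENCODE M21 (GRCm38), which held 23268 of the symbols, and promoters from RefSeq (GRCm38.p6). The fit was tested on simulated data. Alternatives were other pseudocounts, filters, scalings, thresholds, the 4 libraries alone, a replicate block, no trend, no short RNA genes, and each library left out in turn, which leaves 1 group with a single library assumed to vary like the others. A count test was not run, since whole reads could not be recovered for nearly all genes. Some members of the lists are counted but not reported here by name.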

Additional observations from a re-analysis of the deposited data

Results flagged for a closer look

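The LSK minus HSC contrast differed between culture without and with RBCs, by the limma interaction term, for 6 of the 321 genes called without RBCs, at least 2-fold and with an adjusted p under 0.05. Under the alternatives, 0 of these 6 were called with no filter on low values. With no trend 2 were called, both short RNA genes of few reads, Mir8113 and Snora47. A replicate block left 4 called, which were the same 2, Apoe and Ccl9. Of the alternatives that tested each gene, Apoe kept the call in 15 of 19, Ccl9 in 11 of 19, Fbp1 in 9 of 19 and Ccr2 in 7 of 18. The monocyte chemokine receptor gene Ccr2 had an interaction of 1.72 (adjusted p = 0.049): 7.61 and 4.57 FPKM in LSK cells against 0.840 and 0.976 in HSCs without RBCs, and 34.4 and 35.0 against 1.87 and 2.09 with RBCs. The chemokine gene Ccl9 had one of 1.74 (adjusted p = 0.031), with 65.5 and 75.5 FPKM in LSK cells and 2.69 and 4.69 in HSCs with RBCs. Fbp1, an enzyme of gluconeogenesis, had 1.30 (adjusted p = 0.036), from 15.9 and 18.9 against 7.05 and 8.40 FPKM without RBCs to 23.3 and 25.1 against 4.02 and 3.72 with RBCs. The interaction of Apoe was 1.12. For Mir8113 it was -6.45 and for Snora47 -6.24, and these genes had at most 3 reads in a library.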

How the results depend on the processing

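Of 98 single genes examined under 22 alternatives, 58 kept their call or lack of it under each, and 0 changed sign; a pseudocount of 5 ended the most calls, 37. The count of genes lower in LSK cells was 230 with a pseudocount of 0.1 and 32 with a pseudocount of 5, and that of genes higher was 80 with a pseudocount of 5. With no fold threshold the counts were 848 and 904. Higher calls were 60.4% of all calls, against 71.4% with a pseudocount of 5 and 48.4% with no fold threshold. Called in both culture conditions in the same direction were 191 genes, 68 with a pseudocount of 5 and 1197 with no fold threshold. The interaction was called for 18 genes, for 1 with no filter on low values, 5 with no trend and 34 at an adjusted p under 0.1. Leaving out 1 library gave 7 to 26 interaction calls, 191 to 203 genes higher and 126 to 149 lower. Without 1 of the 4 libraries compared, 165 to 175 of the 194 higher calls and 96 to 105 of the 127 lower calls were kept. With the replicate number as a block, 193 genes were higher, 128 lower and 11 called for the interaction; same-numbered LSK and HSC libraries deviated together with r = 0.132, and the labels do not say that a number marks a shared source. No cause of these changes was tested. Depth limits genes of a few reads, and 2 libraries a group limit every test.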

Other observations

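The lists held 58 of the 194 genes higher and 20 of the 127 genes lower in LSK cells, and the genes below, which no list holds, were chosen after their values were seen. On the LSK side, Slpi, a protease inhibitor of neutrophils, had 8.96 and 11.4 FPKM against 0.102 and 0.871 in HSCs (log2 difference 2.95, adjusted p = 5.2e-05). Cd33, a sialic acid receptor of myeloid cells, had 6.36 and 5.47 against 0.297 and 0.254 (2.44, adjusted p = 4.5e-05). Card9, an adaptor of fungal recognition receptors, had 10.8 and 11.7 against 2.08 and 1.06 (2.28, adjusted p = 8.6e-05). Lat2, an adaptor of B cells and mast cells, was abundant with 350.1 and 349 against 86.1 and 84.2 (2.02, adjusted p = 6.8e-07), and 36.3% of its exon bases overlap another gene. Scin, an actin-severing protein, had 84.6 and 29.7 against 5.92 and 6.29, so that the LSK libraries differed from each other more than in the other genes named here.

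On the HSC side, Slfn2, of the Schlafen family, had 96.7 and 96.4 FPKM in LSK cells against 229 and 258 (-1.32, adjusted p = 5.3e-06). S100a6, a calcium-binding protein encoded near S100a4, had 86.3 and 79.9 against 186 and 192 (-1.18, adjusted p = 1.7e-05), and Anxa1, a phospholipid-binding protein, 59.2 and 44.2 against 122 and 112 (-1.18, adjusted p = 6.6e-04). Nupr1, a stress-induced chromatin protein, had 62.8 and 59.2 against 130.0 and 136 (-1.11, adjusted p = 7.3e-06). Sox18, a transcription factor of endothelial cells, was low with 1.78 and 2.67 against 7.60 and 8.09 (-1.47, adjusted p = 3.7e-04). Efna1, an ephrin ligand, had 5.69 and 8.12 against 18.6 and 20.4 (-1.39, adjusted p = 6.6e-04). Of these 6 genes, S100a6, Anxa1, Sox18 and Efna1 were also called with RBCs.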
